A study of Mus musculus with 3 samples.

Results

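The 9 genes described here are called checkpoint and costimulatory ligands and encode proteins through which immune cells restrain or boost one another. They are Cd274, Pdcd1lg2, Cd80, Cd86, Icosl, Cd40, Lgals9, Tnfrsf14 and Cd200. These are 9 of the 32285 genes in the deposited matrices, and all 9 passed the filter on low counts in the main fit of every comparison below. The data were single-cell RNA sequencing counts of live CD45+ cells sorted from pancreatic islets of wild-type female NOD mice, a strain that develops autoimmune diabetes. There were 3 libraries, called replicates 1, 2 and 3, each from islets pooled from 2 to 3 mice aged 15 to 16 weeks; the study ran 2 independent experiments, and the labels do not tie a library to an experiment. All libraries belong to 1 group with no treatment or mutant allele, so the comparisons are between classes of cells within the same libraries. Each main fit took out the difference between libraries. The p-values therefore set each difference between classes against the spread left over these 3 pooled samples. That spread was estimated once per gene over all sums of a fit, so macrophages had none of their own.

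A T cell that meets its antigen reads further signals from the cell that presents it. CD80 and CD86 engage CD28, which supports activation, or CTLA-4, which restrains it; ICOS ligand engages ICOS on activated T cells; and CD40 receives the CD40 ligand of CD4+ T cells and licenses the presenting cell. PD-L1, encoded by Cd274, and PD-L2, encoded by Pdcd1lg2, engage PD-1 and restrain the T cell, and in the NOD mouse blockade of this pathway is known to speed diabetes. Galectin-9 can bind TIM-3, the product of Tnfrsf14 (HVEM) binds BTLA and CD160, and CD200 engages an inhibitory receptor found mainly on myeloid cells.

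The question was which islet immune cells carried the RNA of each ligand. Cells with at least 1000 unique molecular identifiers (UMIs, each taken as 1 captured RNA molecule) and under 10% mitochondrial UMIs were kept, which left 26142 of 26947 cells. Classes were set by the raw UMIs of a few genes. CD8 T cells had Cd3e, at least 2 UMIs of Cd8a and Cd8b1 together and no Cd4. CD4 T cells had Cd3e and Cd4 without Cd8a, Cd8b1 or Foxp3, and regulatory T cells (Treg) had Cd3e and Foxp3. B cells had at least 2 UMIs of Cd79a and no Cd3e. Macrophages had at least 5 UMIs of C1qa and C1qb together, no Cd3e and at most 1 UMI of Cd79a. This gave 3199 CD8 T, 5858 CD4 T, 1612 Treg, 4936 B and 68 macrophage cells. Because dendritic cells are a known source of these ligands, a further gate took 188 cells with at least 3 UMIs of Flt3, Zbtb46, Xcr1, Clec9a, Cd209a, Fscn1 and Ccl22 together, no Cd3e, at most 1 UMI of Cd79a and at most 4 of C1qa and C1qb. The 59 cells that met both the CD8 T and the Treg gates were left out of both, and 10281 kept cells, 39.3%, met no gate.

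The deposited libraries held 5844 to 11566 cells and 33851381 to 80806452 UMIs, and the kept cells had median depths of 4291 to 6522 UMIs. Between 12 and 29 cell barcodes were shared by a pair of libraries. Macrophages were few, with 31, 10 and 27 cells and 126156 to 242681 UMIs per library, against 9795824 to 14069982 UMIs in B cells, so macrophage levels carry the widest counting error. Of genes that the gates did not use, C1qc was at 1445 ± 830 CPM (UMIs of the gene per 1e6 UMIs of the class; SD, n = 3 libraries) in macrophages and at most at 4.32 in the other classes, and Ms4a1, which encodes CD20, was at 515 ± 56.2 CPM in B cells and at 0 in the dendritic-gated cells. Ighm, another B cell marker, was at 1825 ± 989 CPM in B cells, 245 ± 114 CPM in dendritic-gated cells and 85.4 ± 47.4 CPM in macrophages. The dendritic markers Itgax, Cst3, H2-Ab1, Ciita and Ccr7 together were at 14536 to 17954 CPM in dendritic-gated cells. In macrophages they were at 13759 to 16746 CPM, so this sum did not separate the classes. The macrophages also held the insulin genes of beta cells, with a wide spread over libraries. Ins1 was at 193 ± 294 CPM (0 to 532) and Ins2 at 287 ± 427 CPM (7.93 to 779). Ccl5 was at 3734 ± 927 CPM. Ms4a1 in the T classes was 30.7 to 79.2 CPM on average, and the ligand levels are set beside it below. All levels are CPM of the UMIs summed over a class in a library, counting intervals and limits cover counting error only, and levels of different genes were compared only by their order across classes.

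**Figure D1:**
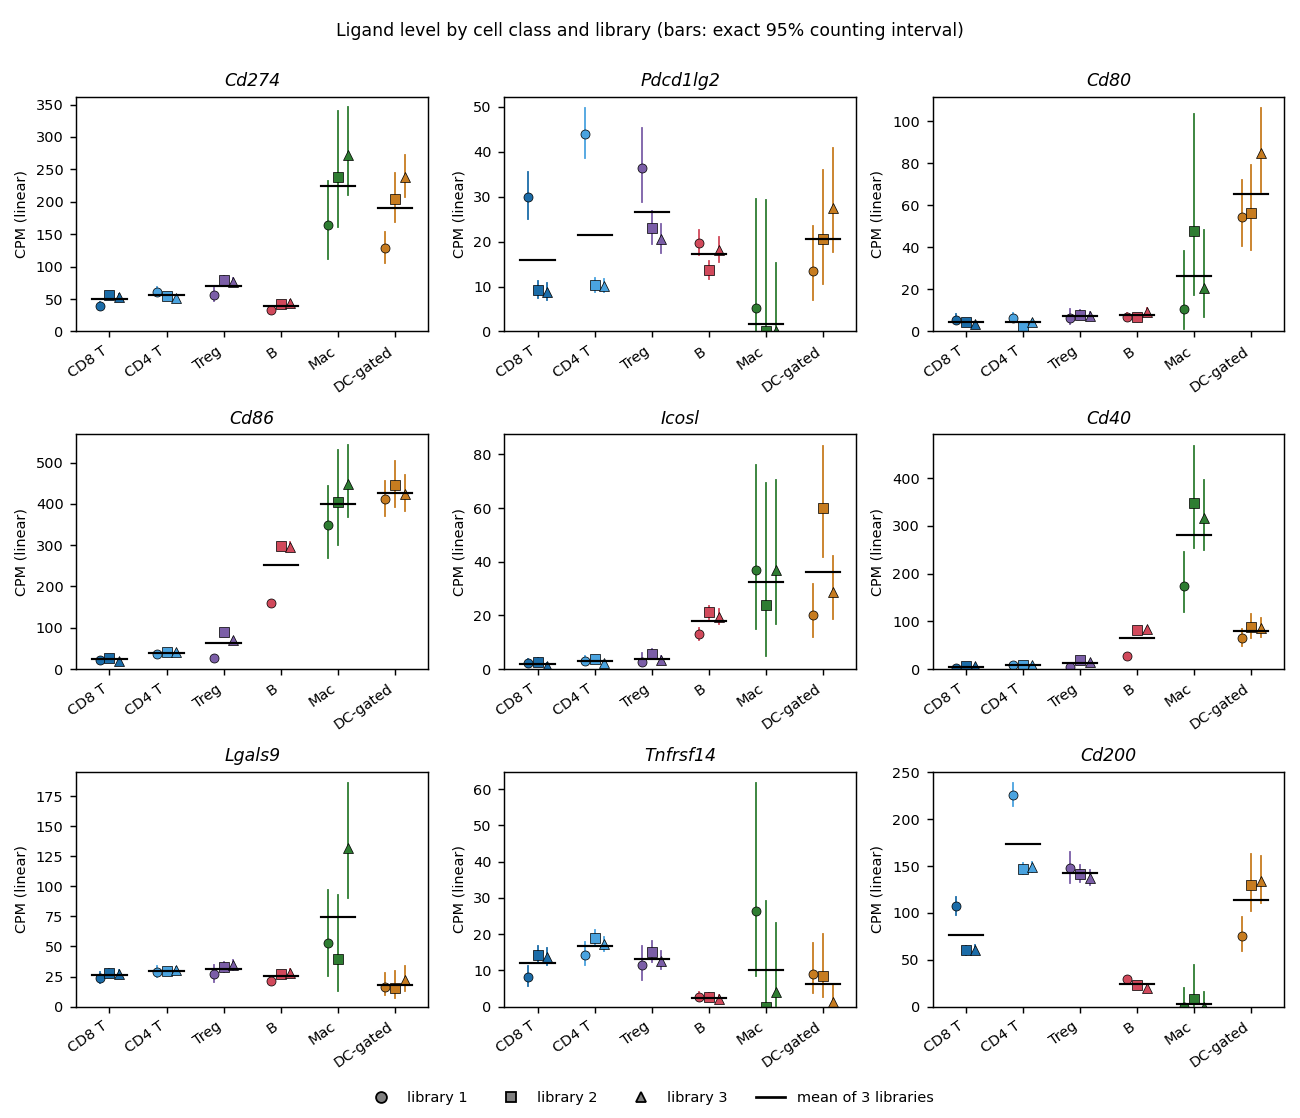
Level of each ligand (CPM, linear axis that starts at 0 in each panel) in 6 cell classes, with 1 point per library and exact 95% Poisson intervals as bars. Cd274, Cd40 and Lgals9 were highest in macrophages and Cd80 in dendritic-gated cells in 3 of 3 libraries, Cd86 and Icosl were shared by macrophages, dendritic-gated and B cells, and Cd200 was highest in CD4 T cells.

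The 2 ligands of PD-1 lie beside each other on chromosome 19 of GRCm38 (mm10), both on the plus strand. Cd274 (ENSMUSG00000016496) spans 29367455 to 29388095 and Pdcd1lg2 (ENSMUSG00000016498) spans 29410919 to 29471161, with 22823 bases and 0 annotated genes between them. Each overlaps an antisense gene. Their proximal promoters are shown because these neighbours had unlike levels across the classes. Each sequence is the 250 bases before the RefSeq start (GRCm38.p6), printed 5′ to 3′ on the gene's strand, for Cd274 chr19:29367188-29367437 and for Pdcd1lg2 chr19:29410669-29410918.
Cd274: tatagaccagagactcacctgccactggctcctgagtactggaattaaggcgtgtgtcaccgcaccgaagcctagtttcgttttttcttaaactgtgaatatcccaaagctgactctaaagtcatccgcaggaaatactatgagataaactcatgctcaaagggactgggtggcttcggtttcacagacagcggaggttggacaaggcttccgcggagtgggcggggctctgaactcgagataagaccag
Pdcd1lg2: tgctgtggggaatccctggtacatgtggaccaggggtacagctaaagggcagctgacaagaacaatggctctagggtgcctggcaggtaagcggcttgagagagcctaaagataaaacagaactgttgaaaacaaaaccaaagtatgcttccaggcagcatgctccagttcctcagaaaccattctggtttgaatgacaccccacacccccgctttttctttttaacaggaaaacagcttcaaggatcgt

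Cd274 was highest in myeloid cells and measurable in every class. Its level was 164, 238 and 272 CPM in the macrophages of replicates 1, 2 and 3 and 128, 204 and 238 CPM in the dendritic-gated cells, and these ranges overlapped. Treg followed with 56.0, 79.1 and 75.7 CPM, below every dendritic-gated value. CD4 T cells held 61.5, 54.4 and 51.3 CPM, CD8 T cells 38.6, 55.8 and 53.6 CPM and B cells 32.9, 43.0 and 43.5 CPM. The ranges of neighbours in this order overlapped from Treg down to B cells. In a fit over 15 sums with the library as a block (edgeR quasi-likelihood test, Benjamini-Hochberg adjustment over 12099 genes), Cd274 was higher in macrophages than in B cells by 2.39 ± 0.20 on the log2 scale (SE; adjusted p = 1.33e-07) and than in the mean of the T classes by 1.97 ± 0.18 (adjusted p = 3.38e-07). With the study's own limits on cells, which left a single macrophage sum of 18 cells, these differences were 1.42 (adjusted p = 0.093) and 0.67 (adjusted p = 0.454). B cells were lower than the T classes by a smaller margin, −0.43 ± 0.10 (adjusted p = 0.00241; 0.0561 without the library block). Dendritic-gated cells and macrophages were not told apart at −0.22 ± 0.19 (adjusted p = 0.479). Among cells thinned to 2000 UMIs, a Cd274 UMI was found in 29.7 ± 9.6% of macrophages (SD, n = 3), 26.5 ± 7.0% of dendritic-gated cells, 14.2 ± 0.4% of Treg and 7.16 ± 1.08% of B cells.

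Pdcd1lg2 was hardly seen in macrophages, where 1, 0 and 0 UMIs were counted. A count of 0 allowed up to 23.8 CPM in replicate 2 and 12.4 CPM in replicate 3. The T classes, B cells and dendritic-gated cells all held it, with Treg at 36.4, 22.9 and 20.5 CPM, dendritic-gated cells at 13.4, 20.5 and 27.5 CPM and B cells at 19.7, 13.6 and 18.1 CPM. CD4 T cells held 43.9, 10.3 and 10.1 CPM and CD8 T cells 29.9, 9.23 and 8.75 CPM. Replicate 1 was the highest library in each T class, and the ranges of the 5 classes overlapped in turn, so they could not be ranked. Over all libraries B cells exceeded macrophages 9.35-fold (95% counting interval 1.67 to 370) and dendritic-gated cells exceeded them 11.4-fold (1.95 to 459). The test did not call Pdcd1lg2 in macrophages against B cells (log2 difference −3.48 ± 1.66, adjusted p = 0.117; 0.00355 to 0.0286 without the low-count filter, with DESeq2 or without replicate 1). Of 186 dendritic-gated cells with at least 2000 UMIs, 112 held a Cd274 UMI and 25 of these also held Pdcd1lg2, whereas 26 of all 188 dendritic-gated cells held Pdcd1lg2. Thinned to 2000 UMIs, from median depths of 9404 to 15293, and pooled over libraries, 5.73% of those with a Cd274 UMI also had Pdcd1lg2, against 2.28% of the rest.

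Cd80 and Cd86 encode the 2 ligands shared by CD28 and CTLA-4. Cd80 (chromosome 16, 38455561 to 38496335, plus strand) was led by the dendritic-gated cells in 3 of 3 libraries, at 54.6, 56.5 and 84.7 CPM. Macrophages held 10.6, 47.6 and 20.6 CPM, from 2, 6 and 5 UMIs, and did not overlap the dendritic-gated range. B cells were at 6.91, 6.97 and 9.09 CPM and Treg at 6.37, 8.03 and 7.32 CPM, which overlapped. CD8 T cells, at 5.51, 4.66 and 3.34 CPM, and CD4 T cells, at 6.45, 2.29 and 4.46 CPM, were lowest. The dendritic-gated cells were above macrophages by 1.54 ± 0.50 on the log2 scale (edgeR, adjusted p = 0.0385), a call lost without replicate 1 (1.29, adjusted p = 0.164), without replicate 3 (1.18, adjusted p = 0.329), with DESeq2 (adjusted p = 0.057) and with its size factors (adjusted p = 0.0798). Macrophages were above the T classes by 2.19 ± 0.65 (adjusted p = 0.0157), a call lost without replicate 2 (adjusted p = 0.0913) or replicate 3 (adjusted p = 0.0693), with the gates free of the other classes' genes (1.65, adjusted p = 0.179) and with the study's limits on cells (−6.24, adjusted p = 0.673). Against B cells they were at 1.49 ± 0.63 (adjusted p = 0.0783). B cells were above the T classes by 0.69 ± 0.22 (adjusted p = 0.0148), a call lost with DESeq2 (adjusted p = 0.0501), without replicate 3 (0.52, adjusted p = 0.211) and with the study's limits on cells (0.51, adjusted p = 0.328).

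Cd86 (chromosome 16, 36603869 to 36666081, minus strand) was carried by all antigen-presenting classes. Dendritic-gated cells held 411, 445 and 425 CPM, macrophages 349, 404 and 449 CPM and B cells 160, 297 and 297 CPM. The first 2 classes overlapped, while every B cell value lay below every macrophage value. Treg held 26.4, 89.8 and 70.0 CPM, CD4 T cells 37.3, 41.4 and 40.7 CPM and CD8 T cells 22.7, 27.7 and 20.5 CPM. B cells exceeded the T classes by 2.79 ± 0.15 on the log2 scale (edgeR, adjusted p = 3.52e-10) and macrophages exceeded them by 3.40 ± 0.23 (adjusted p = 1.14e-08). Macrophages against B cells gave 0.61 ± 0.24 (adjusted p = 0.0618; 0.0213 with DESeq2 size factors and 0.0147 with DESeq2). After thinning to 2000 UMIs, 52.6 ± 7.6% of macrophages (SD, n = 3), 46.0 ± 2.1% of dendritic-gated cells and 38.2 ± 8.1% of B cells had a Cd86 UMI, against 3.00 ± 0.24% of CD8 T cells, a class that should hold little of it. Unthinned, the shares were 84.4%, 74.1%, 67.7% and 9.33%, at median depths of 5376 to 12864 UMIs in macrophages and 5370.5 to 7594 in CD8 T cells.

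Icosl and Cd40 were, like Cd86, higher in B cells and macrophages than in the T classes, and Cd40, unlike Cd86, was higher in macrophages than in dendritic-gated cells. Icosl (chromosome 10, 78069302 to 78083913, plus strand), the ligand of ICOS, was at 20.1, 59.9 and 28.6 CPM in dendritic-gated cells, at 37.0, 23.8 and 37.1 CPM in macrophages and at 13.1, 21.1 and 19.5 CPM in B cells. The T classes held 1.26 to 5.55 CPM, below every B cell value. Icosl was higher than in the T classes by 2.77 ± 0.15 on the log2 scale in B cells (edgeR, adjusted p = 4.34e-10) and by 3.63 ± 0.47 in macrophages (adjusted p = 1.37e-05). Macrophages did not overlap B cells in level, but the difference of 0.86 ± 0.38 did not pass the test (adjusted p = 0.0935; 0.0327 with DESeq2).

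Cd40 (chromosome 2, 165055627 to 165072948, plus strand), the receptor through which CD4+ T cells license presenting cells, was at 174, 349 and 317 CPM in macrophages, above every other class. Dendritic-gated cells held 64.7, 87.3 and 85.8 CPM and B cells 28.2, 82.3 and 83.0 CPM, which overlapped. Treg held 4.55, 19.3 and 14.8 CPM, CD4 T cells 8.02, 9.16 and 9.21 CPM and CD8 T cells 2.99, 5.87 and 5.50 CPM. Macrophages exceeded B cells by 2.04 ± 0.23 on the log2 scale (edgeR, adjusted p = 3.56e-06), the T classes by 5.11 ± 0.25 (adjusted p = 3.84e-10) and, from the other side of the test, dendritic-gated cells were lower than macrophages by −1.73 ± 0.27 (adjusted p = 0.00018). B cells exceeded the T classes by 3.07 ± 0.14 (adjusted p = 4.1e-11). In all alternatives tried these 4 calls for Cd40 held. In thinned cells, 37.9 ± 8.4% of macrophages, 12.5 ± 2.0% of dendritic-gated cells and 11.9 ± 5.4% of B cells had a Cd40 UMI, against 0.514 ± 0.211% of CD8 T cells.

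Lgals9 (chromosome 11, 78962974 to 78984946, minus strand), which encodes galectin-9, was present at like levels in all lymphoid classes. Macrophages held 52.9, 39.6 and 132 CPM, from 10, 5 and 32 UMIs, above every other class in 3 of 3 libraries. Treg were at 26.9, 32.5 and 34.5 CPM, CD4 T cells at 28.8, 29.4 and 30.1 CPM, CD8 T cells at 23.9, 28.1 and 27.5 CPM, B cells at 21.2, 26.9 and 27.7 CPM and dendritic-gated cells at 16.7, 15.4 and 21.7 CPM. Macrophages exceeded B cells by 1.59 ± 0.28 on the log2 scale (edgeR, adjusted p = 0.000281) and the T classes by 1.51 ± 0.27 (adjusted p = 0.000306). Both calls rested on replicate 3, without which they were 0.89 (adjusted p = 0.1) and 0.78 (adjusted p = 0.141). Both were also lost with the study's limits on cells, which left a single macrophage sum. Dendritic-gated cells were lower than macrophages by −2.12 ± 0.33 (adjusted p = 0.000149; −1.48 and 0.0541 without replicate 3). B cells and the T classes were not told apart at −0.08 ± 0.11 (adjusted p = 0.539).

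Tnfrsf14 and Cd200 were the members that leaned to T cells. Tnfrsf14 (chromosome 4, 154921933 to 154928563, minus strand), which encodes HVEM, was at 14.3, 19.0 and 17.2 CPM in CD4 T cells, 11.4, 15.0 and 12.7 CPM in Treg and 8.04, 14.2 and 13.7 CPM in CD8 T cells, with overlapping ranges. B cells held 2.75, 2.63 and 2.04 CPM, below every T cell value, and the difference was −2.36 ± 0.21 on the log2 scale (edgeR, adjusted p = 1.12e-07). Macrophages gave 5, 0 and 1 UMIs and dendritic-gated cells 8, 5 and 1, which placed neither class. The macrophage difference was 2.02 ± 0.85 from B cells (adjusted p = 0.0795) and −0.35 ± 0.66 from the T classes (adjusted p = 0.706). The 0 in replicate 2 allowed up to 23.8 CPM.

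Cd200 (chromosome 16, 45382135 to 45409053, minus strand) was at 226, 147 and 149 CPM in CD4 T cells and 148, 142 and 137 CPM in Treg, which overlapped. Dendritic-gated cells held 75.8, 130 and 134 CPM, CD8 T cells 107, 59.9 and 60.6 CPM and B cells 29.2, 22.7 and 20.1 CPM. Macrophages gave 0, 1 and 0 UMIs, so the ratio of CD4 T cells to macrophages was 88.4 (95% counting interval 15.9 to 3492), that of dendritic-gated cells 61.9 (11.0 to 2452) and that of B cells 13.4 (2.39 to 529). The edgeR test called Cd200 lower in macrophages than in B cells (adjusted p = 0.00202) and than in the T classes (adjusted p = 4.71e-07). It called Cd200 higher in dendritic-gated cells than in macrophages (adjusted p = 4.19e-05). The call against B cells was lost with the study's limits on cells, which left a single macrophage sum. B cells were below the T classes by −2.24 ± 0.12 on the log2 scale (adjusted p = 3.36e-10). Cd200 was also the only ligand called between CD8 T and CD4 T cells, at −1.11 ± 0.13 (adjusted p = 2.63e-05), and that call held in all alternatives tried.

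**Figure D2:**
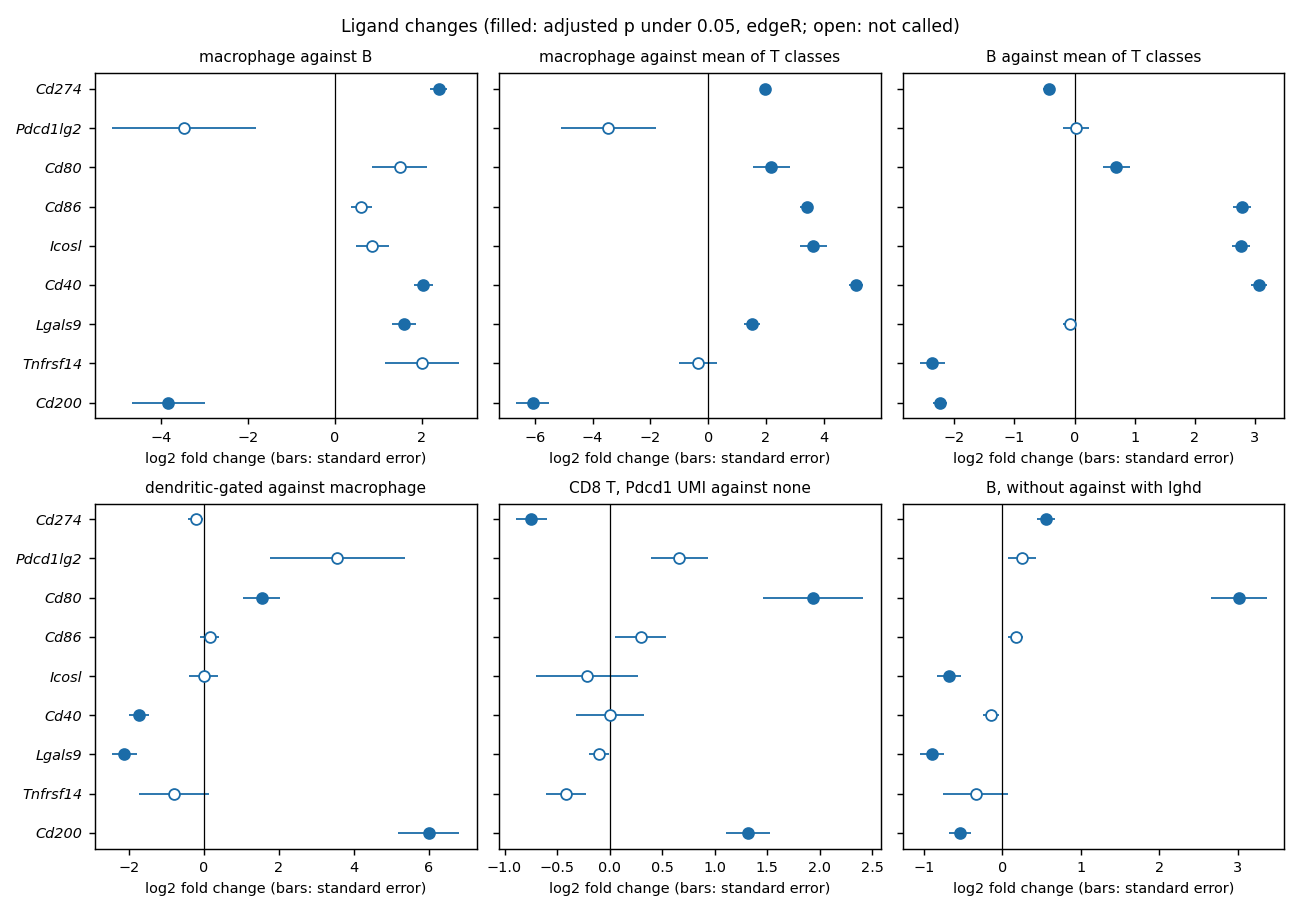
Log2 difference of each ligand (x axis, with standard error) in 6 comparisons, 1 panel each; filled points have an adjusted p under 0.05 in the edgeR fit and open points do not. In B cells against the T classes Cd40, Cd86, Icosl and Cd80 lie to the right of 0 and Tnfrsf14, Cd200 and Cd274 to the left, and in B cells without against with Ighd the point of Cd80 lies farthest from 0, at 3.01.

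Read against all genes, the members were called at these rates. In macrophages against B cells 3 of 9 ligands were higher and 1 lower, where 15.4% of 12099 genes were higher and 20.6% lower. The median ligand difference was 1.49 on the log2 scale, beside −0.56 for all genes. Against the T classes 6 were higher and 1 lower, where 15.1% and 20.8% of genes were, with a median of 1.97 beside −0.53. Pdcd1lg2 was at −3.45 ± 1.65 against the T classes (adjusted p = 0.118). Each macrophage difference above is thus 0.56 or 0.53 higher when set relative to the median of all genes, for instance 2.95 for Cd274 and 2.60 for Cd40 against B cells. Tnfrsf14, uncalled against the T classes at −0.35, changes sign on that scale. Of all genes called against B cells, 1865 were higher and 2494 lower, and with DESeq2 2362 and 1631.

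In B cells against the T classes 4 of 9 ligands were higher (Cd40, Cd86, Icosl and Cd80) and 3 lower (Tnfrsf14, Cd200 and Cd274), where 27.3% of genes were higher and 29.5% lower. Lgals9 and Pdcd1lg2 (0.02 ± 0.22, adjusted p = 0.946) were not called. Between dendritic-gated cells and macrophages 2 were higher in the former (Cd200 and Cd80) and 2 lower (Lgals9 and Cd40), where 11.2% and 7.76% of 12125 genes were and the median of all genes was 0.31. Not called there were Cd274, Cd86 (0.15), Icosl (−0.01), Pdcd1lg2 (3.56 ± 1.80, adjusted p = 0.196) and Tnfrsf14 (−0.81 ± 0.94). CD8 T against CD4 T cells gave 0 higher and 1 lower, with 4.55% and 6.61% of genes called. The other 8 lay between −0.72 for Cd40 (adjusted p = 0.0675) and 0.22 for Cd80, with Cd86 at −0.67 (adjusted p = 0.0696), Icosl at −0.49, Tnfrsf14 at −0.35, Pdcd1lg2 at −0.22, Cd274 at −0.05 and Lgals9 at −0.03. In Treg against CD4 T cells 0 ligands were called by edgeR and 0 by DESeq2, where 3.48% of genes were higher and 2.29% lower. At an unadjusted p under 0.05 there were 5 (Cd40, Cd86 and Cd80 higher, Tnfrsf14 and Cd200 lower), beside 2186 of 12099 genes. Differences ran from −0.46 for Tnfrsf14 to 0.80 for Cd80, with Pdcd1lg2 at 0.55, Icosl at 0.32, Cd274 at 0.26 and Lgals9 at 0.02. Without replicate 1, Cd86 (0.84), Cd40 (0.76), Pdcd1lg2 (0.98) and Cd274 (0.44) were higher in Treg and Tnfrsf14 (−0.50) lower past the threshold. In that setting 1130 of 12343 genes were called. With all 3 libraries and no low-count filter 4 passed (Cd80, Pdcd1lg2, Cd40 and Cd86, all higher), beside 1164 of 20618 genes. With the study's limits on cells Cd274 did, beside 803 of 10597 genes. With scored doublets left out Cd40 did, beside 795 of 11754 genes, so the count of ligands depended on the setting. Over all comparisons 33 calls were made for ligands, and 14 of them held in the same direction under every alternative. The share of all genes called is given with each comparison, and how many of those calls held was not counted.

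In the T classes, each ligand was set beside the level that RNA of B cells and macrophages would give. Whether the ligand levels came from such RNA was not tested. Ms4a1 in CD8 T cells was 6.44%, 8.08% and 3.13% of its B cell level, in CD4 T cells 10.4%, 13.0% and 7.47% and in Treg 10.4%, 23.4% and 13.1%. Multiplying the B and macrophage levels of each ligand by the shares that Ms4a1 and C1qc kept in a T class gave the level that RNA carried over in these ratios would give. For Cd86 it came to 45.6 to 93.2% of the level measured in the T classes, for Cd40 to 47.7 to 118% and for Icosl to 43.0 to 89.6%. For Cd274 it was 2.61 to 13.1%, for Lgals9 3.21 to 19.5%, for Pdcd1lg2 4.27 to 17.3%, for Tnfrsf14 0.470 to 4.09% and for Cd200 1.01 to 3.76%. Cd80 lay between, at 8.32 to 39.5%.

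With T cells that held any UMI of Cd79a, C1qa or C1qb removed, Cd86 in CD4 T cells fell from 39.8 to 15.7 CPM on average, in CD8 T cells from 23.6 to 10.2 and in Treg from 62.1 to 24.9. Cd40 fell from 8.80 to 1.98, from 4.79 to 1.35 and from 12.9 to 5.19 CPM in the same order, and Icosl from 3.07 to 0.589, from 2.04 to 0.506 and from 3.88 to 1.59. In the cells that remained, the level from carried-over RNA came on average to 2.80 to 5.13% of Cd86 over the 3 T classes. For Cd40 it came to 3.50 to 10.1% and for Icosl to 3.70 to 7.81%. The source of the remaining levels was not tested. Cd200 did not fall, at 192 CPM against 174 in CD4 T cells and 166 against 142 in Treg. Treg, the T class with the most Ms4a1, also had the most cells scored as doublets, 13.7 to 17.7%. The shares were 7.52 to 10.1% of CD8 T cells, 9.16 to 10.4% of CD4 T cells and 2.12 to 3.85% of B cells. With scored doublets left out, Treg held 45.2 CPM of Cd86 on average (3.88, 77.1 and 54.5 in replicates 1, 2 and 3), 11.2 of Cd40 and 2.29 of Icosl. The part of doublets in these levels was not tested.

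**Figure D3:**
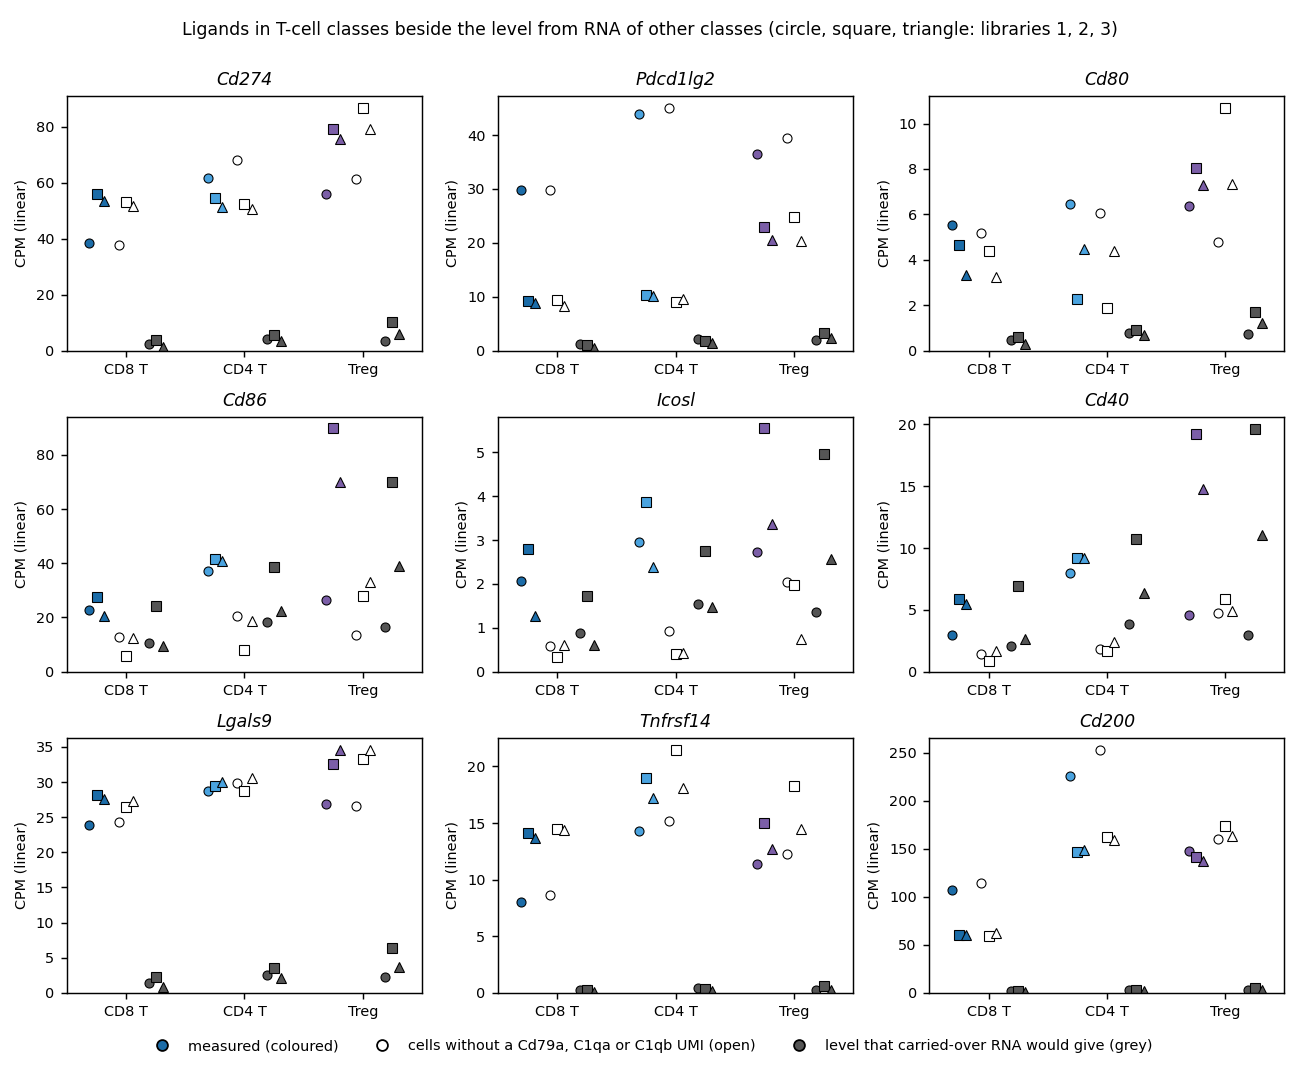
Ligand levels (CPM) in the 3 T classes, with 1 point per library: as measured, in T cells free of Cd79a, C1qa and C1qb UMIs (open), and the level that carried-over B cell and macrophage RNA would give (grey). For Cd86, Cd40 and Icosl the grey points reach 43.0 to 118% of the measured level, whereas for Cd274 and Cd200 they stay at 13.1% or less.

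Level and abundance gave different orders. Macrophages had the highest Cd274 and Cd40 per UMI, yet they held on average 1.25% of all Cd274 UMIs and 4.23% of all Cd40 UMIs of the kept cells, the latter being their largest share of any ligand. B cells held 50.8 ± 7.1% of Cd86 (SD, n = 3), 53.7 ± 6.4% of Cd40 and 51.8 ± 4.1% of Icosl UMIs. Cd274 was spread, with 20.4 ± 0.7% in CD4 T cells, 13.8 ± 5.5% in B cells, 11.5 ± 1.8% in CD8 T cells and 38.0 ± 2.0% in cells of no class. Of all UMIs of the kept cells, CD4 T cells held 17.0 to 25.1%, B cells 12.2 to 31.3%, CD8 T cells 12.9 to 14.4% and cells of no class 29.1 to 37.1%. CD4 T cells held 43.8 ± 4.2% of Cd200 and 32.3 ± 2.7% of Tnfrsf14 UMIs. Dendritic-gated cells, 0.402 to 1.52% of the kept cells and 0.787 to 2.66% of their UMIs, held 13.2 ± 3.9% of Cd80 UMIs, beside 22.6 ± 4.8% in B cells.

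**Figure D4:**
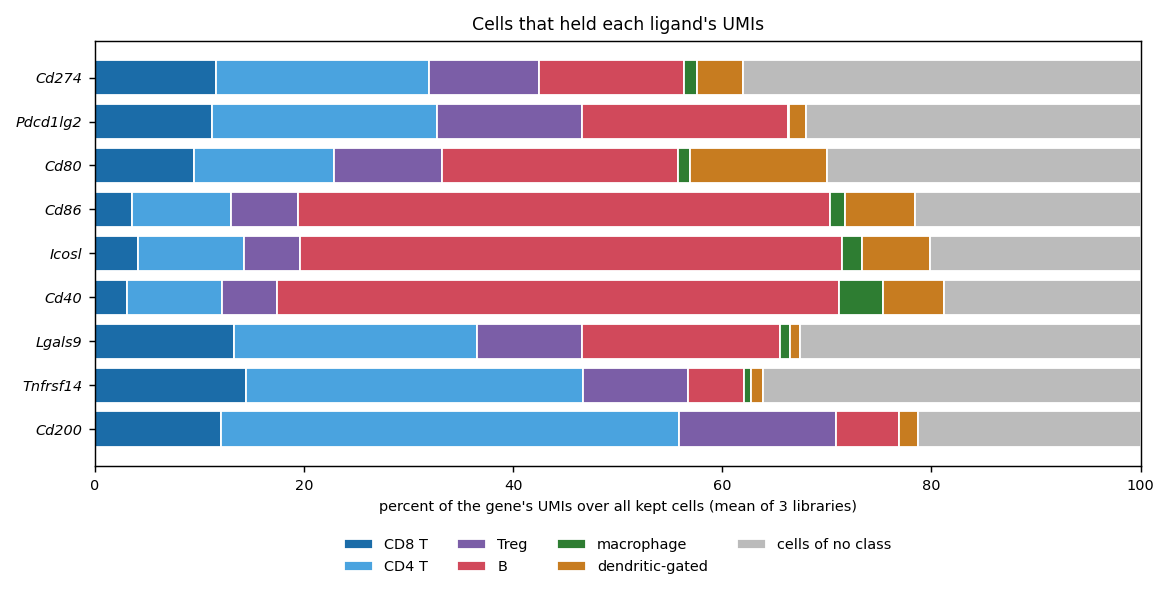
Share of each ligand's UMIs (percent of those in all kept cells, mean of 3 libraries) held by each class, as stacked bars. B cells held 50.8 to 53.7% of Cd86, Cd40 and Icosl, CD4 T cells 43.8% of Cd200, and macrophages at most 4.23% of any ligand.

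Within the dendritic-gated cells, the ligands concentrated in cells with Fscn1 and Ccl22, genes of mature, migrating dendritic cells. This split, at 3 or more UMIs of these genes together against none, was chosen after the values were seen and is given with no test; it left 41 cells (18, 5 and 18) against 111. Cd274 was at 320, 263 and 317 CPM with the genes and 86.8, 154 and 179 CPM without. Cd80 was at 135, 120 and 119 against 35.4, 28.0 and 60.4 CPM and Cd86 at 685, 635 and 578 against 303, 353 and 275 CPM. All 3 groups of values were apart, as were those of Cd40, with means of 190 and 44.9 CPM, of Pdcd1lg2, with 37.7 and 13.8, and of Icosl, with 120 and 14.8. The Icosl means had SDs of 93.5 and 4.12 (n = 3) and came from 45 and 20 UMIs, and those of Pdcd1lg2 came from 17 and 18 UMIs. Cd200 stood at 371, 383 and 370 against 12.4, 44.8 and 66.7 CPM. It came from few cells, since in replicate 2 a single cell held 31 of 32 Cd200 UMIs and in replicate 3 a single cell held 27 of 84. Lgals9 went the other way, at 12.0 against 23.2 CPM on average from 6 and 33 UMIs, lower in 3 of 3 libraries. Tnfrsf14 gave 2, 0 and 0 UMIs with the genes and 5, 0 and 1 without. Shares of cells with 2 ligands after thinning are pooled over the cells of the 3 libraries. By these shares only some ligands met in the same cells more often than in the rest. Of dendritic-gated cells with a Cd80 UMI, 66.4% had Cd86, against 43.6% of the rest, and for B cells the shares were 54.0% and 37.5%. For Cd86 in cells with a Cd40 UMI and in the rest, the shares were 60.8% and 44.5% of dendritic-gated cells, 40.4% and 37.3% of B cells and 50.1% and 51.0% of macrophages. Within replicates 1, 2 and 3 the B cell shares were 27.4, 43.2 and 43.5% with Cd40 against 28.9, 42.4 and 43.1%, so they hardly differed. Those of macrophages were 28.8, 61.9 and 64.3% against 50.1, 54.3 and 51.1%. The dendritic-gated share was higher with Cd40 in each library. For Cd80 in cells with a Cd274 UMI and in the rest, the pooled shares were 18.8% and 10.2% of dendritic-gated cells and 1.82% and 1.16% of B cells. In macrophages they were 3.24% and 2.81%, but the share was lower with Cd274 in replicates 2 and 3.

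Among B cells, those without Ighd UMIs (1285 cells) were compared with those with at least 2 (2614 cells), since surface IgD is lost on switched and germinal centre B cells. Cd80 was at 10.9, 20.9 and 25.3 CPM without Ighd and at 3.76, 2.37 and 1.15 CPM with it, and the groups were apart. It rose by 3.01 ± 0.36 on the log2 scale (edgeR over 10032 genes and 6 sums, adjusted p = 0.000386), a call that held in all alternatives tried. Cd274 was at 37.2, 53.3 and 61.4 against 29.8, 39.0 and 36.9 CPM, ranges that overlapped although it was higher in each library (0.56 ± 0.12, adjusted p = 0.0104; without replicate 3, 0.44 and 0.11). Lgals9 (−0.90 ± 0.15, adjusted p = 0.00379), Icosl (−0.68 ± 0.15, adjusted p = 0.0158) and Cd200 (−0.54 ± 0.14, adjusted p = 0.0285) were lower. The Cd200 call was lost in 6 of 11 alternatives, among them DESeq2 (adjusted p = 0.393), without replicate 2 (0.13) and without replicate 3 (0.063). The Icosl call was lost in 5, among them DESeq2 (adjusted p = 0.279) and without replicate 3 (0.0556). The Cd274 call held in 7 of 11 and was lost with DESeq2, no block, the study's limits on cells and without replicate 3. The Lgals9 call held in 9 of 11 and was lost with no block and with the study's limits. Cd86 (0.17), Pdcd1lg2 (0.25), Cd40 (−0.14) and Tnfrsf14 (−0.34) were not called. Thus 2 of 9 were higher and 3 lower, where 7.58% and 3.68% of genes were. Without the library block 1 ligand, Cd80, was called, beside 179 of 9637 genes.

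Plasma cell markers moved with this split. Jchain, Mzb1 and Sdc1 together were at 8643, 2366 and 5985 CPM in the cells without Ighd and at 367, 412 and 519 CPM in those with it. With cells of 5 or more UMIs of these genes left out, an alternative chosen after seeing the data, Cd80 differed by 2.65 (adjusted p = 1.59e-06), Cd274 by 0.51 (adjusted p = 0.00646) and Lgals9 by −0.67 (adjusted p = 0.00942). Cd86 then passed the test at 0.43 (adjusted p = 7.4e-05; 0.17 and 0.346 with all cells), while Icosl (−0.46, adjusted p = 0.157) and Cd200 (−0.49, adjusted p = 0.101) no longer did. The macrophage markers together were also at 269 to 534 CPM without Ighd and 61.7 to 98.5 CPM with it. Over all B cells most of this list was Apoe, at 162 CPM on average. Lyz2 was at 20.4, C1qc at 1.41, Csf1r at 1.46 and Adgre1 at 0.872 CPM. The part of these markers in the result was not tested.

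**Figure D5:**
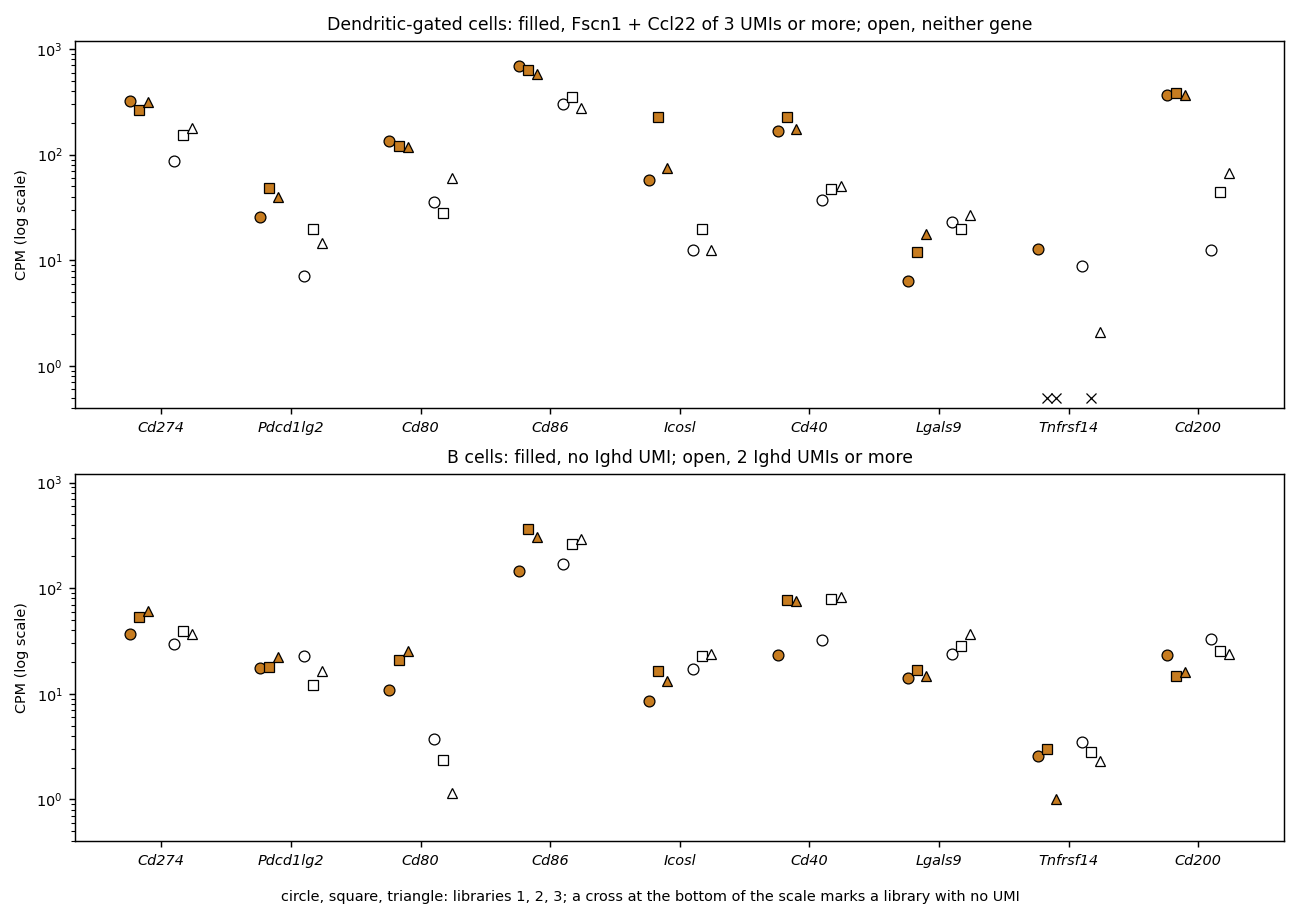
Ligand levels (CPM, log axis, 1 point per library, crosses for 0 UMIs) in dendritic-gated cells with and without Fscn1 and Ccl22 and in B cells without and with Ighd. Cd80 was 10.9 to 25.3 CPM in B cells without Ighd and 1.15 to 3.76 CPM in those with it, and Cd274, Cd80, Cd86, Cd40 and Cd200 were apart in the dendritic-gated split.

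Among T cells, those with a Pdcd1 UMI, the RNA of PD-1, were set against those without. In CD8 T cells (1066 against 2133) Cd200 was at 127, 123 and 110 CPM with Pdcd1 and 88.4, 28.8 and 32.7 CPM without, a difference of 1.32 ± 0.21 on the log2 scale (edgeR over 11511 genes, adjusted p = 0.000579). Cd80 was at 6.09, 11.6 and 6.70 against 4.96, 1.25 and 1.42 CPM (1.94 ± 0.48, adjusted p = 0.012). Cd274 was lower, at 31.8, 40.2 and 41.7 against 45.1, 63.5 and 60.4 CPM (−0.74 ± 0.15, adjusted p = 0.00262). These groups did not overlap for any of the 3 genes. Not called were Pdcd1lg2 (0.66 ± 0.27, adjusted p = 0.124), Tnfrsf14 (−0.41 ± 0.19, adjusted p = 0.179), Cd86 (0.30), Icosl (−0.22), Lgals9 (−0.10) and Cd40 (0.01). So 2 of 9 ligands were higher and 1 lower, where 6.92% and 7.01% of genes were. Without the library block 0 were called, and without replicate 2 or replicate 3 the calls for Cd80 (adjusted p = 0.187 and 0.158) and Cd274 (0.076 and 0.0561) were lost.

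In CD4 T cells (2003 against 3855) Cd200 was at 282, 228 and 233 CPM with Pdcd1 and at 194, 92.7 and 90.9 CPM without (0.92 ± 0.19, adjusted p = 0.00272; without replicate 2, 0.0621, and without replicate 3, 0.119). Lgals9 was lower by −0.27 ± 0.09 (adjusted p = 0.0453), a call lost in 7 of 10 alternatives, among them each of the 3 left-out libraries. Not called were Cd80 (0.99 ± 0.41, adjusted p = 0.123), Pdcd1lg2 (0.54 ± 0.22, adjusted p = 0.116), Tnfrsf14 (−0.33), Icosl (0.21), Cd86 (0.17), Cd274 (−0.12) and Cd40 (0.07). That made 1 higher and 1 lower, where 8.24% and 7.49% of genes were, and 0 without the library block. The test of whether the Pdcd1 difference itself differed between CD8 T and CD4 T cells, added after seeing the values, called 0 of 9 ligands and 0 (0%) of all genes in either direction with edgeR. At an unadjusted p under 0.05 there were 850 genes, and DESeq2 called 29, no ligand among them. Cd274 had the lowest p of the ligands there, with a difference of −0.63 (adjusted p = 0.386; 0.0298 without replicate 1). The others lay between −0.43 for Icosl and 0.95 for Cd80, with Cd200 at 0.40, Lgals9 at 0.17, Cd86 at 0.13, Pdcd1lg2 at 0.12, Cd40 at −0.06 and Tnfrsf14 at −0.09. The cells with a Pdcd1 UMI were deeper, at median depths of 5865 to 8656.5 against 4896 to 7309 UMIs in CD8 T cells, and 10.1 to 14.8% against 5.78 to 10.1% of them were scored as doublets. In CD4 T cells the plasma cell markers together were at 325, 876 and 805 CPM with Pdcd1 and 211, 48.8 and 19.3 CPM without, and the B cell markers at 221, 775 and 658 against 367, 318 and 208 CPM. In CD8 T cells the plasma cell markers were at 985, 33.9 and 14.4 against 300.0, 305 and 343 CPM and the B cell markers at 881, 281 and 118 against 216, 668 and 105 CPM. The part of depth, doublets or these markers in the results was not tested.

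Of 10 partners of the members (receptors, and the ligands Cd40lg and Tnfsf14), 9 were tested between classes. In B cells against the T classes, where 27.3% of all genes were higher and 29.5% lower, 8 were lower (Icos, Cd200r1, Ctla4, Cd160, Cd40lg, Havcr2, Cd28 and Pdcd1) and Btla, the partner of HVEM, was higher by 1.43 ± 0.16 on the log2 scale (edgeR, adjusted p = 3.11e-06). The median difference of these 9 partners was −4.26, beside −0.02 for all genes. Macrophages had 2 higher and 3 lower than B cells, against 15.4% and 20.6% of all genes, and 1 higher and 5 lower than the T classes, against 15.1% and 20.8%. Havcr2, which encodes TIM-3, was higher in macrophages by 5.91 ± 0.29 than in B cells (adjusted p = 7.64e-10) and by 3.00 ± 0.23 than in the T classes (adjusted p = 3.78e-08). It was higher still in dendritic-gated cells, at 502 ± 63.3 CPM against 279 ± 52.2 (SD, n = 3; log2 difference 0.91 ± 0.20, adjusted p = 0.00362). There 3 of 9 were higher than in macrophages (Havcr2, Icos and Btla) and 0 lower, where 11.2% and 7.76% of all genes were. Btla was at 0 UMIs in the macrophages of all 3 libraries, and at 76.9, 53.1 and 37.8 CPM in dendritic-gated cells. Against CD4 T cells, 1 was higher and 1 lower in Treg, where 3.48% and 2.29% of all genes were: Treg had more Ctla4 (1.11 ± 0.13, adjusted p = 0.000105) and less Cd40lg (−1.86 ± 0.25, adjusted p = 0.000573). CD8 T cells had 5 lower, where 6.61% of all genes were: Cd40lg (−4.53 ± 0.32, adjusted p = 1.1e-06), Btla (−1.13), Cd200r1 (−0.92), Icos (−0.86) and Ctla4 (−0.81). Cd160 alone was higher there (2.49 ± 0.31, adjusted p = 0.000134), where 4.55% of all genes were.

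Of 12 other ligands, of the B7, TNF and nectin families with Icam1, a ligand of integrins, and Cd48, of the SLAM family, 9 were tested between classes. In macrophages against B cells 6 were higher and 0 lower, where 15.4% of all genes were higher and 20.6% lower. The median difference was 2.92 on the log2 scale, beside −0.56 for all genes, and among the 6 were Tnfsf9, which encodes 4-1BB ligand (4.51 ± 0.55, adjusted p = 8.61e-06), Vsir, which encodes VISTA (3.29 ± 0.36, adjusted p = 2.6e-06), and Icam1 (3.01 ± 0.17, adjusted p = 2.97e-09). Tnfsf9 in macrophages ran from 0 to 116 CPM over the libraries. Dendritic-gated cells had 0 of 8 higher and 3 lower than macrophages (Icam1, Vsir and Cd276), where 11.2% and 7.76% of all genes were. B cells had Nectin2 and Icam1 higher and Tnfsf4, Vsir, Pvr and Cd48 lower than the T classes, where 27.3% and 29.5% of all genes were.

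Over the 15 sums of the 5 gated classes, Cd86 was most alike in log2(CPM + 1) to Cd74, Abca1 and H2-Ab1 (Pearson r = 0.99, 0.99 and 0.98 among 6712 genes), and Icosl to Cd74, Ly86 and H2-Aa (each 0.98), genes of antigen presentation or of B cells and myeloid cells. Cd40 was most alike to Abca1 and Marcks (each 0.98) and Cd200 to the T cell kinase gene Lck (0.98). Among the ligands, Cd86 and Icosl (0.98) and Cd86 and Cd40 (0.97) were closest, whereas Cd274 and its neighbour Pdcd1lg2 had r = −0.82. For that pair the macrophage sums, highest in Cd274, held 1, 0 and 0 Pdcd1lg2 UMIs, and dendritic-gated cells were not among the 15 sums. The sums share libraries and differ in depth, so these values only describe the pattern.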

How the data were processed

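Live CD45+ islet cells of 3 libraries were profiled with 3' single-cell chemistry of 10x Genomics. The authors deposited raw UMI counts per gene and cell, made with Cell Ranger 6.0.1 against mm10. Counts were used as deposited, with no imputation. Gene positions were read from GENCODE M21 (GRCm38) and promoters from RefSeq (GRCm38.p6), for which 7 of 9 members matched.

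The members, gates and gene lists were chosen with earlier results of these data known. The split by Fscn1 and Ccl22, the test of the Pdcd1 difference between CD8 T and CD4 T cells and the plasma cell alternative were chosen after seeing the values. All 9 members were named in each comparison. The lists of partners and of other ligands were given by counts in the comparisons between classes shown, with examples. Each member's most alike genes were taken by Pearson r among genes at 20 CPM or more on average in at least 1 class. One such gene is not reported here.

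UMIs were summed per library and class (at least 10 cells per sum) and tested with edgeR 4.0.16 in R 4.3.3 (filterByExpr, TMM, quasi-likelihood F test). Each fit had a term for the library, the block, and p-values were adjusted by Benjamini-Hochberg over every gene in the fit, with a threshold of 0.05. SE is the log2 difference divided by the square root of F. Dendritic-gated, Pdcd1 and Ighd comparisons had fits of their own. Cells are not replicates, so the Wilcoxon test over cells that the study used was not applied. Classes of a library came from the same pooled mice: deviations of sums from their class means over 3465 genes correlated at 0.44 on average within libraries (30 pairs, 0.0675 to 0.845) and at −0.19 between them (60 pairs). The fitting code was tested on simulated data.

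Shares of cells were expected values after thinning each cell to 2000 UMIs, leaving out shallower cells. Intervals were exact at 95% (Poisson), and a count of 0 allowed 3 counts. Doublets were kept, and as an alternative the top 7.6% of Scrublet scores (scanpy 1.11.5) in each library were left out. Other alternatives were DESeq2 1.42.0 and its size factors, no low-count filter, no block, each library left out, gates free of the other classes' genes, the study's limits on cells (200 to 5000 genes, under 6000 UMIs and under 5% mitochondrial UMIs, besides a ribosomal minimum), thinning to 1000 UMIs and no thinning.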

Additional observations from a re-analysis of the deposited data

How the results depend on the processing

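Over the alternatives, 742 of 887 ligand differences kept their direction and their side of the threshold, 50 passed it newly, 53 no longer passed it, 41 moved otherwise and 1 reversed: Cd80 in macrophages against the T classes, 2.19 on the log2 scale, was −6.24 with the study's limits on cells, which left 1 macrophage sum and 0 Cd80 UMIs in it. DESeq2 gave no adjusted p for 4 of the 742, all in the Pdcd1 difference between CD8 T and CD4 T, so for these only the direction was compared. These limits gave dendritic-gated cells against macrophages no value, since too few cells remained. Of 162 alternative levels 110 moved by less than 1 SD, and of 108 alternative shares 15 did. Macrophage sums came from 31, 10 and 27 cells. The cause of the changes below was not tested.

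Counts of ligands and of genes called changed as follows. Macrophages against B cells: 4 ligands, 8 with no low-count filter, 9 with DESeq2 and 2 with the study's limits, and 4359 genes, 1373 with those limits. Macrophages against the T classes: 7 ligands, 4 with the study's limits, and 4347 genes, 1394 with them. Treg against CD4 T: 0 ligands, 4 with no filter, 1 with the study's limits, 1 with scored doublets left out and 0 to 5 with a library left out. Genes called were 698 of 12099, 1164 of 20618 with no filter, 803 of 10597 with the study's limits and 795 of 11754 with doublets left out. They were 105 of 12099 with no replicate block and 124 of 11995 to 1130 of 12343 with a library left out. CD8 T against CD4 T: 1 ligand, 3 with no filter, 2 with DESeq2 and 1 to 3 with a library left out. Genes called were 1350 of 12099, 1840 of 20618 with no filter and 1431 of 12099 with DESeq2. They were 425 of 12099 with no block, 722 of 10597 with the study's limits and 445 of 11751 to 1648 of 12343 with a library left out. Dendritic-gated cells against macrophages: 4 ligands, 2 to 4 with a library left out, and 2293 of 12125 genes, 963 of 11800 to 1674 of 12667.

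In the Pdcd1 comparisons 8 ligands were tested with the gate free of other classes and 6 with the study's limits. With those limits 8 were tested in the Ighd comparison. Pdcd1 in CD8 T: 3 ligands, 0 with no replicate block and 1 to 4 with a library left out. Genes called were 1603 of 11511, 198 of 11511 with no block, 800 of 7739 with the study's limits and 322 of 10571 to 1977 of 11549 with a library left out. Pdcd1 in CD4 T: 2 ligands, 1 with DESeq2, 0 with no block, 1 with the gate free of other classes and 0 to 4 with a library left out. Genes called were 1810 of 11511, 1460 of 11511 with DESeq2 and 175 of 11511 with no block. They were 1893 of 10414 with the gate free of other classes and 330 of 10571 to 2478 of 11549 with a library left out. The Pdcd1 difference between CD8 T and CD4 T: 0 ligands, 1 with no filter and 0 to 2 with a library left out. Genes called were 0 of 11511, 207 of 19833 with no filter, 29 of 11511 with DESeq2 and 1 of 11511 with no block. They were 3 of 10414 with the gate free of other classes, 18 of 7739 with the study's limits and 5 of 11118 with doublets left out. With a library left out they were 0 of 10571 to 145 of 11549. B cells without against with Ighd: 5 ligands, 2 with DESeq2, 1 with no block, 2 with the study's limits and 2 to 6 with a library left out. Genes called were 1129 of 10032, 518 of 10032 with DESeq2, 179 of 9637 with no block and 80 of 7407 with the study's limits. They were 788 of 9741 to 1116 of 9641 with a library left out. With plasma cells left out, chosen after seeing the data, they were 381 of 9371.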
